A study of Rattus norvegicus with 2 samples.

Results

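The miR-130, miR-301, miR-148 and miR-152 families were followed in rat carotid artery after balloon injury. Members were chosen by name alone: every rat miRNA row starting with one of these 4 numbers, with no further digit and no asterisk for a passenger strand. This gave 7 members of 350 miRNAs, namely miR-130a, miR-130b, miR-301a, miR-301b, miR-148b-3p, miR-148b-5p and miR-152. The injured artery was from male Sprague-Dawley stock of 250 g and was taken 10 days after a balloon catheter had stripped and stretched the vessel wall. The uninjured carotid artery served as its control and came from the same strain, sex and weight class. There was 1 array per group, hybridised with Cy3-labelled total RNA, and the sources used here do not give whether several animals were pooled. There is thus no replicate error for any value below, and the comparison is between these arrays, without a test.

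These miRNAs are short RNAs that guide Argonaute proteins to messenger RNAs and lower their translation and stability, mainly through pairing of the seed near the 5′ end. miR-130a is known to act in smooth muscle proliferation and, in human endothelial cells, to repress the homeobox genes GAX and HOXA5. miR-148 and miR-152 are known to repress the DNA methyltransferase DNMT1. The artery wall answers balloon injury with smooth muscle division and a neointima.

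The mature sequences are shown because the seed is what ties these families together. RefSeq sequences on build GRCr8 matched 5 of the 7 members, and miR-301a and miR-148b-5p had no mature entry under their row names. The array rows named without an arm were taken as the 3p arm, which is the main product of these hairpins. Capitals mark the seed, bases 2 to 8, and each RNA is written 5′ to 3′.
miR-130a-3p: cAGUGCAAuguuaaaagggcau
miR-130b-3p: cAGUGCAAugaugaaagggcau
miR-301b-3p: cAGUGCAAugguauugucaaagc
miR-148b-3p: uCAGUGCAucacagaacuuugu
miR-152-3p: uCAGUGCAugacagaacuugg

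Members fell into 2 seed groups. miR-130a-3p, miR-130b-3p and miR-301b-3p carried the seed AGUGCAA, and they were 3 of the 3 entries with that seed among 724 mature rat entries. miR-148b-3p and miR-152-3p carried CAGUGCA, which was shared by 3 entries in all, the third being miR-148a-3p, which had no row on the array. Both seeds hold the 6 bases AGUGCA, set 1 base apart. The DNA letters complementary to the seeds were TTGCACT for the first group and TGCACTG for the second, so both complements contain TGCACT. Only 7 of the 724 entries held AGUGCA within their first 8 bases. miR-301a, which had no entry, is not in any of these counts.

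Outside the seed, some members were close copies of each other. Positions are counted from 1 at the 5′ end. miR-130a-3p and miR-130b-3p were identical at 20 of 22 bases and differed by U11A and A13G. miR-148b-3p and miR-152-3p were identical at 19 of 21 aligned bases and differed by C10G and U20G. miR-130a-3p and miR-301b-3p, by contrast, matched at 13 of 22 bases. How far the array probes separate such close copies was not tested.

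The genes lie apart in the genome, with the exception of 1 pair. On GRCr8 the mature miR-130a-3p lies on the minus strand at chr3:90229240-90229261, outside any longer gene of the RefSeq table. miR-148b-3p lies on the plus strand at chr7:136299930-136299951, within the span of Copz1, and miR-152-3p on the plus strand at chr10:82329435-82329455, within the span of Copz2. Copz1 and Copz2 encode alternative zeta subunits of the COPI vesicle coat and are also on the plus strand. The Mir301a hairpin, on the plus strand at chr10:72422599-72422698, lies within Ska2, a kinetochore gene of the same strand, and within the span of Prr11 on the other strand. miR-301b-3p (chr11:97384077-97384099) and miR-130b-3p (chr11:97384430-97384451) come from hairpins 269 bases apart on the plus strand, both within the span of 2610318N02Rikl. Whether these positions are exonic or intronic was not analysed here.

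Of the 7 members, 4 were detected on both arrays and 3 on neither, and none was detected on 1 array only. Over the whole array 45.1% of the 350 miRNAs were detected on both. Detection was read from the deposited flag, which was 0 on all 7 negative controls of both arrays. Detected miRNAs ran from 1.36 to 13992 intensity units on the injured array and from 3.43 to 17014 on the uninjured array. The smooth muscle miRNAs miR-143 and miR-145 were bright on both arrays, with a summed intensity of 14466 on the injured and 17749 on the uninjured array.

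**Figure D1:**
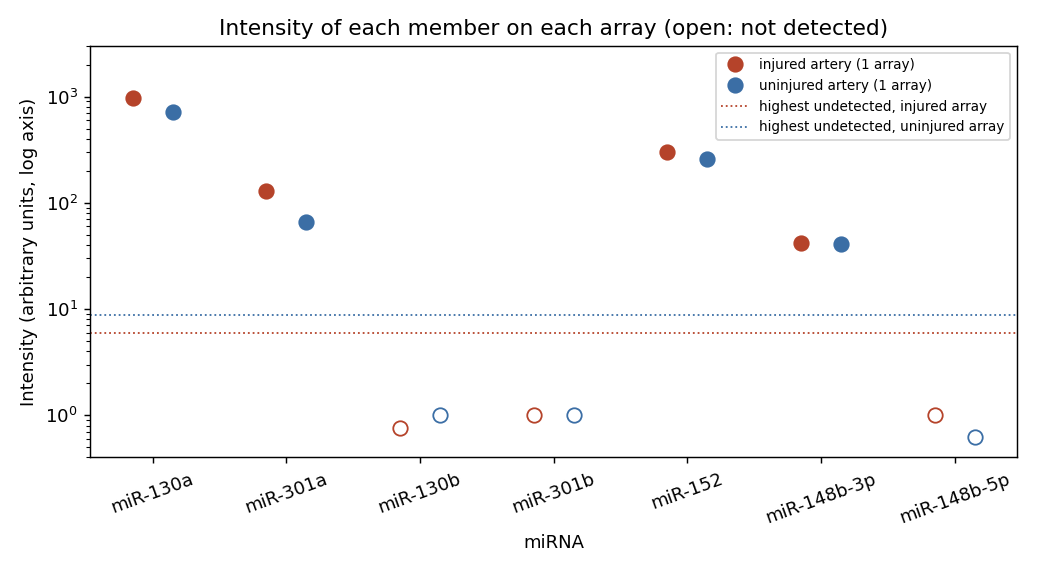
Deposited intensity (arbitrary units, log axis) of each of the 7 members on the injured array (left point) and the uninjured array (right point), with open points for members that were not detected and dotted lines at the highest undetected signal of each array (5.98 injured, 8.84 uninjured). miR-130a, miR-301a, miR-152 and miR-148b-3p lie above both lines, while miR-130b, miR-301b and miR-148b-5p lie at or under 1.

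In the injured artery all 4 detected members had a higher scaled signal than in the uninjured artery, by between 1.09-fold and 2.06-fold, and miR-301a was the only one at least 2-fold higher. That direction held for miR-301a under all 8 settings compared, of which no scaling and the deposited table hold the same ratios. The other 3 members fell below 0 on the log2 scale in at least 1 setting. For each ratio the intensities were divided by the array's 75th percentile over the 158 miRNAs detected on both arrays, which was 378 on the injured and 401 on the uninjured array. Log2 ratios are injured minus uninjured. A 2-fold difference was used as a descriptive threshold. In the injured artery 12.7% of the 158 miRNAs passed that mark upwards and 3.80% downwards, and the members did so in 1 of 4 cases upwards and 0 of 4 downwards. At 1.5-fold the shares over the 158 were 24.7% upwards and 10.1% downwards, with the members again at 1 and 0. A count of 1 among 4 is too small to set apart from those shares.

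miR-301a, of the AGUGCAA group by its family name, had an intensity of 128 on the injured array and 66.1 on the uninjured array. Both signals stood clear of the background, at 21.5 times and 7.47 times the highest undetected signal of their array. The scaled ratio was 2.06-fold, a log2 ratio of 1.04. This put miR-301a at rank 19 of 158 from the top. Among the 20 miRNAs nearest to it in mean log2 signal, 19 had a lower ratio and their median log2 ratio was 0.50. The 2-fold mark was passed narrowly: without any scaling between the arrays the ratio was 1.94-fold.

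miR-130a, the member with the known part in smooth muscle proliferation, had an intensity of 967 on the injured array and 712 on the uninjured array. It made up 0.992% of the summed miRNA signal of the injured array and 0.746% of that of the uninjured array. The scaled ratio was 1.44-fold, a log2 ratio of 0.53, at rank 46 of 158. Of its 20 neighbours in signal, 17 had a lower ratio, and their median log2 ratio was 0.07. The direction depended on the scaling, with a log2 ratio of -0.06 when the control features were aligned. That alignment used only the 6 control features detected on both arrays.

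miR-130b and miR-301b, the pair that share a locus, were not detected on either array. miR-130b was listed at 0.763 on the injured and 1 on the uninjured array, and miR-301b at 1 on both. These entries are at or below the value of exactly 1 that 109 miRNAs carry on each array, so they give no ratio. miR-130b differs from miR-130a at 2 bases. Its row stayed undetected on both arrays although miR-130a was measured at 967 on the injured array and 712 on the uninjured array.

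miR-152, of the CAGUGCA group, had an intensity of 301.1 on the injured array and 261 on the uninjured array. The scaled ratio was 1.22-fold, a log2 ratio of 0.29, at rank 65 of 158. Among its 20 neighbours in signal 14 had a lower ratio, and their median log2 ratio was 0.08. It lay 0.15 above the median log2 ratio of all 158 miRNAs, which was 0.14. Its sign also depended on the scaling, with a log2 ratio of -0.15 when the arrays were aligned at their medians and -0.30 with the control features aligned.

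miR-148b-3p had nearly equal intensities of 41.9 on the injured array and 41.0 on the uninjured array. The scaled ratio was 1.09-fold, a log2 ratio of 0.12, at rank 83 of 158, and 8 of its 20 neighbours in signal had a lower ratio. It differed from the median log2 ratio of all 158 miRNAs by -0.02. The log2 ratio was -0.32 with the medians aligned and -0.29 after quantile normalization. The other arm of the same hairpin, miR-148b-5p, was not detected, with listed values of 1 on the injured and 0.621 on the uninjured array.

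**Figure D2:**
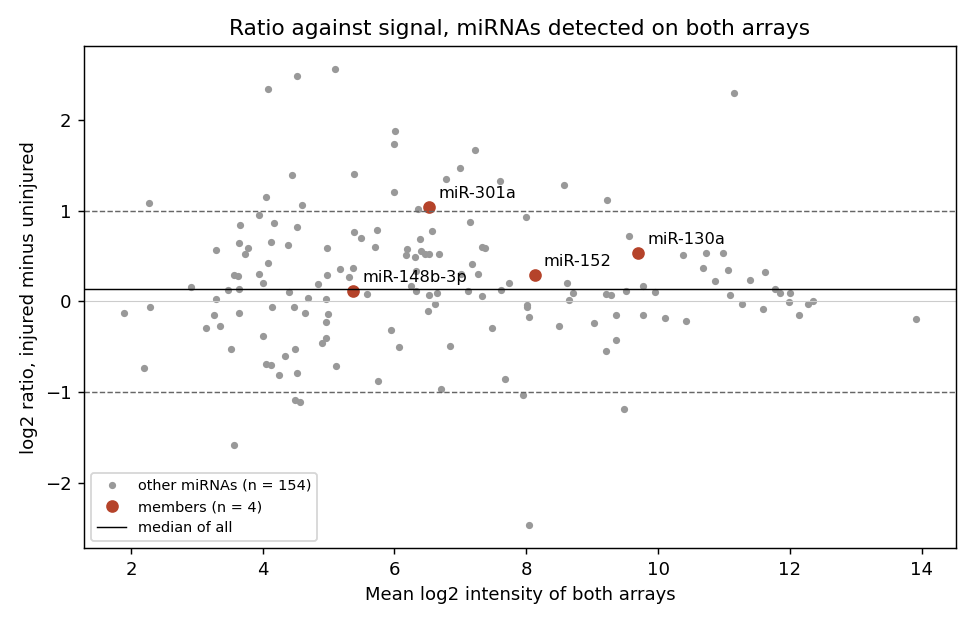
Log2 ratio (injured minus uninjured) against mean log2 intensity of both arrays for the 158 miRNAs detected on both, with the 4 members in red, dashed lines at 2-fold and a solid line at the median of 0.14. miR-301a sits just above the upper dashed line, miR-130a and miR-152 between it and the median, and miR-148b-3p on the median.

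The detected members of the miR-130 and miR-301 families had higher ratios than those of the miR-148 and miR-152 families. Scaling by 1 factor per array cannot change this order. It also held under quantile normalization and with the pseudocount, the settings that could have changed it. The median log2 ratio of the 4 was 0.41, against 0.14 for all 158 miRNAs, whose quartiles were -0.15 and 0.58. The ratio of miR-301a exceeded that of miR-148b-3p by 0.92 on the log2 scale and that of miR-152 by 0.75. miR-130a exceeded miR-148b-3p by 0.41 and miR-152 by 0.24. Within a family pair, miR-301a exceeded miR-130a by 0.52 and miR-152 exceeded miR-148b-3p by 0.17. Scaling by 1 factor per array cannot move these gaps, but quantile normalization did: it narrowed the gap of miR-301a over miR-130a to 0.05 and widened that of miR-152 over miR-148b-3p to 0.52. With 1 array per group, none of these gaps can be set against a replicate spread.

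**Figure D3:**
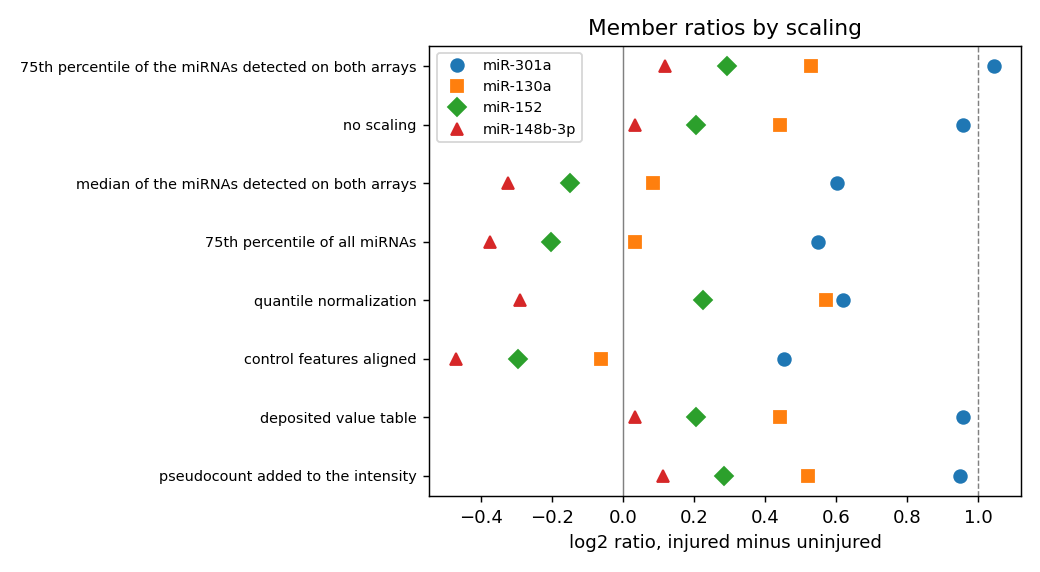
Log2 ratio (injured minus uninjured, horizontal axis) of the 4 detected members under 8 ways of setting the arrays on a common scale or floor (rows), with a solid line at 0 and a dashed line at 2-fold. miR-301a stays above 0 in each row, from 0.45 to 1.04, and miR-301a, miR-130a, miR-152 and miR-148b-3p keep that order in each. Only quantile normalization and the pseudocount could have changed the order, as scaling by 1 factor per array cannot.

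Each other common scale lowered the median ratio of the array. With the control features aligned the log2 ratios of all 158 miRNAs shifted by -0.59 in the median, with the 75th percentile of all miRNAs by -0.49, with the medians aligned by -0.44, with quantile normalization by -0.23 and without scaling by -0.09. miR-301a remained above 0 in all 8 settings and reached 2-fold in 1 of them. miR-130a was above 0 in 7 settings, miR-152 in 5 and miR-148b-3p in 4. No scaling and the deposited table hold the same ratios, so these tallies count 1 setting 2 times. Ranks can differ only under quantile normalization and the pseudocount, as 1 factor per array leaves them unchanged. The rank of miR-301a among the 158 ran from 16 to 25 over the settings and that of miR-130a from 26 to 46. That of miR-152 ran from 42 to 65 and that of miR-148b-3p from 82 to 115.

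miR-19 does not hold AGUGCA, but its RNAs share GUGCAA with the seed of the miR-130 group. These sequences are shown for that overlap, with the seed in capitals.
miR-19a-3p: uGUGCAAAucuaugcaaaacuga
miR-19b-3p: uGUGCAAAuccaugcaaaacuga
Both miR-19 RNAs were the other array rows with GUGCAA in their first 8 bases. miR-19a and the chromosome 15 copy of miR-19b are made with miR-17 from a transcript abundant in dividing cells. miR-19b-3p also comes from a further gene, Mir19b2, on chromosome X. miR-19b had an intensity of 171 on the injured array and 71.0 on the uninjured array, a log2 ratio of 1.35. miR-19a was detected on the injured array alone, with 35.4 there and 8.15 on the uninjured array. By the scaled intensities, miR-19a was 4.62-fold higher against its own dim signal, which exceeds the lowest detected signal of the uninjured array. The bound was 4.25-fold with the brightest undetected miRNA of that array as the floor. By these scaled values both miR-19 RNAs lay above each of the 4 detected members, of which miR-301a came nearest. miR-19a and miR-19b differ by U11C alone, so they may not be independent readings.

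By nearness of both log2 signals over these 2 arrays, the miRNAs most like miR-301a were miR-146a, miR-222 and miR-25, at distances of 0.20, 0.24 and 0.31 on the log2 scale. Those nearest to miR-130a were miR-199a-5p, miR-140 and miR-30a, at 0.24, 0.27 and 0.39. miR-152 lay nearest to miR-103, miR-365 and miR-30b-5p, at 0.29, 0.30 and 0.35, all of which had a negative log2 ratio. miR-148b-3p lay nearest to miR-324-5p, miR-186 and miR-185, at 0.13, 0.17 and 0.29. With 1 array per group this nearness describes brightness on 2 arrays and no pattern across samples.

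The smooth muscle proliferation list had been used in earlier work on these data and was chosen with earlier results known. Its count describes these arrays and is no independent test. In it, 6 of 10 miRNAs had a ratio of 2-fold or more and none was lower by 2-fold, with a median log2 ratio of 1.06. The 6 were miR-21, miR-31, miR-146b, miR-214, miR-221 and miR-222. The rest had log2 ratios of 0.77 for miR-146a, 0.09 for miR-24, -0.08 for miR-26a and -0.03 for miR-352. Of all 158, 12.7% passed upwards and 3.80% were at least 2-fold lower. The list count was 2 with the control features aligned and 3 with the medians aligned, with list medians of 0.48 and 0.62. In these settings 7 and 8 of all 158 were at least 2-fold higher, in that order. In the contractile list 0 of 5 were at least 2-fold higher and 3 of 5 at least 2-fold lower, with a median of -1.03. The 3 were miR-1, miR-133a and miR-133b, which are also abundant in heart and skeletal muscle, whereas miR-143 and miR-145 had log2 ratios of -0.20 and -0.55. With a pseudocount of 10 added to the intensities, 0 of the 5 were lower by 2-fold.

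Marker miRNAs of blood cells also had unequal signals on these arrays. Of 5 leukocyte miRNAs, all detected on both arrays, 3 had a ratio of 2-fold or more and none was lower by 2-fold. The shares over all 158 were 12.7% upwards and 3.80% downwards. miR-342-3p and miR-150 did not pass, with log2 ratios of 0.19 and -0.50. With quantile normalization or the control features aligned, 1 of the 5 was lower by 2-fold. In these settings 12 and 23 of all 158 were lower by 2-fold, in that order. The 5 had a summed intensity of 515 on the injured and 241 on the uninjured array. Both erythroid miRNAs, miR-144 and miR-451, were at least 2-fold lower, with a summed intensity of 125 on the injured and 677 on the uninjured array. The 2 endothelial rows, miR-126 and miR-126*, summed to 615 on the injured and 626 on the uninjured array. Of 4 neuron miRNAs, miR-124, miR-9 and miR-138 were detected on the uninjured array alone. Over the whole array, 166 of the 350 miRNAs were detected on the uninjured array and 158 on both. The uninjured signal of miR-9, 7.43, lay under the highest undetected signal of that array, 8.84. miR-128 was detected on both, at 39.8 on the injured and 32.9 on the uninjured array, a log2 ratio of 0.36. The 4 summed to 46.6 on the injured and 83.2 on the uninjured array. Of 3 skeletal and cardiac muscle miRNAs, miR-499 was detected on both arrays, miR-206 and miR-208 on neither, with miR-208 at the value of 1 on both. Their summed intensity was 10.8 on the injured and 11.8 on the uninjured array. The part of these cells in the ratios of miR-301a and miR-130a was not tested, and in whole-artery RNA a change in the number of cells of a type and a change in RNA per cell cannot be told apart.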

How the data were processed

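Each of the 2 arrays came as a deposited table of 1 signal intensity and 1 flag per feature, on a linear scale, with 350 miRNA and 22 control features. Labelling used Cy3 and an Agilent miRNA reagent, per the labels' protocols. The sources used here do not give the scanner software, background subtraction or prior normalization. The authors' deposited value table held a linear ratio. Its injured column equalled the injured over the uninjured intensity for 349 of 349 shared names (relative tolerance 1e-05), so it carries no scaling.

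Groups came from the labelled injury state. A miRNA counted as detected where its flag was 1, which the files do not define. For log2 ratios, each intensity was divided by the 75th percentile of its array, taken over the 158 miRNAs detected on both, and the scaling added 0.09 to each. All members were named, with the 3 nearest miRNAs of each detected one and the other array miRNAs with AGUGCA or GUGCAA in bases 1 to 8. The members and lists were chosen with earlier results of these data known. The computation was tested on simulated data. Alternatives were 5 other scalings, the deposited table, a threshold of 1.5-fold, a filter on dim miRNAs and a pseudocount of 10. Alignment of the control features took the median over the 6 detected on both arrays. Python 3.11.15, pandas 2.3.3, NumPy 2.4.6 and Matplotlib 3.10.9 were used. The number of arrays limits the precision.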

Additional observations from a re-analysis of the deposited data

How the results depend on the processing

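With 1 array per group no replicate could be left out. No paired analysis was possible because each group held 1 array and no test was run. A value counted as moved when it changed by 0.1 or more on the log2 scale, or a count by over 1.5 times. When medians were aligned, the log2 ratios moved to 0.60 for miR-301a, 0.085 for miR-130a, -0.15 for miR-152 and -0.32 for miR-148b-3p, with a median of -0.033 over these 4. Scaling at the upper quartile of every miRNA gave 0.55, 0.033, -0.20 and -0.38 in the same order of miRNAs, with a median of -0.085. Alignment of the control features gave 0.45, -0.062, -0.30 and -0.47, with a median of -0.18. Quantile normalization moved miR-301a to 0.62 and miR-148b-3p to -0.29. The count of members at least 2-fold higher was 0 under each of these 4 settings, without scaling and in the deposited table, and 1 at 1.5-fold or with dim miRNAs left out. No member was at least 2-fold lower in any setting run. Over all 158 miRNAs, 8 were at least 2-fold higher and 16 lower when medians were aligned, 7 and 19 at the upper quartile of every miRNA, 13 and 12 after quantile normalization, and 7 and 23 after alignment of the control features. At 1.5-fold they were 39 and 16. With a pseudocount of 10, a setting added for these counts after the data were seen, they were 14 and 2. The other settings for the smooth muscle lists were also added then. No member was detected on 1 array only, so another floor for such bounds could not change a member's value. The deposited intensities carry no background per feature, so signal over background could be judged for the members by the undetected signals alone.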
